A study of Mus musculus with 3 samples.

Results

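The genes of the interleukin-6 (IL-6) family response and of the acute phase response were examined in spatial transcriptome sections of the mouse heart. They are 10 of the 32285 genes in the files, found by their symbols, and all 10 had at least 50 unique molecular identifiers (UMIs) in the sham and I/R sections together. Il6 is a ligand, Il6st and Osmr are receptor chains, Stat3 is the transcription factor, Socs3 is the feedback inhibitor, and Saa3, Lcn2, Lrg1, Serpina3n and Hp encode secreted acute phase proteins. The study used C57BL/6 mice and asked what Shexiang Baoxin Pill (SBP, labelled MUSKARDIA), a traditional Chinese medicine, does to the heart after ischemia-reperfusion (I/R). Each condition was represented by 1 section. The sham mouse received vehicle by gavage for 7 days and then surgery in which the needle was passed without tying the vessel. The I/R mouse received the same vehicle course, and its left anterior descending coronary artery was tied for 30 min and reopened for 24 h. The SBP mouse had the same ligation and reperfusion after 7 days of the medicine. No mouse that received SBP without injury was analysed here, so the medicine can be compared only on the injured background.

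IL-6 and its relatives signal through pairs of receptor chains that contain gp130, the product of Il6st. Oncostatin M uses gp130 together with the product of Osmr. The bound receptors activate JAK kinases, which phosphorylate STAT3, and STAT3 switches on target genes that include Socs3, whose product shuts the receptor complex down. In the liver this route drives the acute phase response, in which serum amyloid A, haptoglobin and similar proteins are released into blood. Several of these proteins are also made outside the liver by epithelium, endothelium, fibroblasts and macrophages, and lipocalin-2 and haptoglobin are stored in neutrophil granules. Ankrd1, by which spots were grouped, encodes a muscle ankyrin repeat protein that is strongly induced in stressed cardiomyocytes, and the study took it to separate infarct from other areas.

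The promoters of 9 of the 10 genes were found in the RefSeq table of the build GRCm38.p6. Each covers 250 bases before and 50 bases after the transcription start. The promoters of Il6, Socs3, Saa3 and Lcn2 are shown, because Il6 and Socs3 stood highest in the I/R section and Saa3 and Lcn2 in the SBP section. Capitals mark matches, on either strand, to a pair of short patterns, TTCNNNGAA for STAT factors and TTGCNNAAT for C/EBP factors. The matches are descriptions of letters and not of binding. Of the 32851 promoters in the table, 8.30% held the STAT pattern and 2.40% the C/EBP pattern.
Il6, chr5:30012864-30013163, plus strand: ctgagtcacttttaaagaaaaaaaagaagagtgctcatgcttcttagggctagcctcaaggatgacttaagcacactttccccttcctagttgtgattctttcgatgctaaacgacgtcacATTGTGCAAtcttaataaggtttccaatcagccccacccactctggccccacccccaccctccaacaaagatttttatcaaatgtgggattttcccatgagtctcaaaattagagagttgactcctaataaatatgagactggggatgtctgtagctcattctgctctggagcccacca
Socs3, chr11:117969317-117969616, minus strand: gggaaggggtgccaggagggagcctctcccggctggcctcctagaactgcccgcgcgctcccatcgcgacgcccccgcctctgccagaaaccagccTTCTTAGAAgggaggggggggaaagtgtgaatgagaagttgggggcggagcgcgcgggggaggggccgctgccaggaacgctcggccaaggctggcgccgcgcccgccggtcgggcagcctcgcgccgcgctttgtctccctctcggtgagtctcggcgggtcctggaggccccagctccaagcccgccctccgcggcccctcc
Saa3, chr7:46715627-46715926, minus strand: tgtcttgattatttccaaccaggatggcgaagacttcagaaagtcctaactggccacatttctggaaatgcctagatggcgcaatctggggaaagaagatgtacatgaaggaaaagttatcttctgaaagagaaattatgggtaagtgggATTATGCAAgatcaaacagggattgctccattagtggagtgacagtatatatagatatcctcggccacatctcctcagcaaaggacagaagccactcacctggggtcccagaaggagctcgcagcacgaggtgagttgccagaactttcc
Lcn2, chr2:32387690-32387989, minus strand: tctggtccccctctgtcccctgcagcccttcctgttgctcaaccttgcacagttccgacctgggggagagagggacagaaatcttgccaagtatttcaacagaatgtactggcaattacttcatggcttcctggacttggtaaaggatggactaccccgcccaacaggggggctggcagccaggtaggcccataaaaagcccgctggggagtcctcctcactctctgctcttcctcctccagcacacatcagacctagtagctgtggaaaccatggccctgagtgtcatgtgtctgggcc

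The STAT pattern was found only in the Socs3 promoter among the 9, starting 154 bases before the RefSeq start site. The C/EBP pattern was found in the promoters of Il6, 129 bases before the start, and of Saa3, 100 bases before it. These matches did not overlap. Neither pattern was found in the promoters of Lcn2, Lrg1, Serpina3n, Osmr, Il6st and Stat3. The windows of Socs3, Lcn2 and Osmr, set by RefSeq starts, lie inside the gene spans given below, so they are not upstream of those whole spans.

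In Visium sections, each barcoded spot collects the transcripts of a small piece of tissue that can hold several cells. The sham, I/R and SBP sections kept 2234, 2082 and 1960 spots that held 25118258, 30238530 and 21631280 UMIs. A sham spot held 10645 UMIs at the median, an I/R spot 14672 and an SBP spot 10652.5. Levels are UMIs of a gene per 1000000 UMIs of its section (CPM). Because 1 section stands for each condition, nothing could be tested, and all 95% intervals cover counting error only, not the spread between mice. The sections share 1207 to 1568 barcodes in pairs, since Visium barcodes name positions on the slide. Cardiomyocyte markers, which define the labelled tissue, took between 40546 and 54369 CPM. The neutrophil list of 11 genes summed to 33.4 CPM (sham), 269 CPM (I/R) and 129 CPM (SBP), with Ly6g at 0 in sham and SBP. The hepatocyte list of 6 genes summed to 1.87, 23.1 and 9.94 CPM, in that order. Whether a level follows the number of cells of a type under the spots or the RNA of each cell cannot be told apart. Over all genes tested, the median log2 ratio of I/R over sham was 0.24, that of SBP over I/R was -0.17 and that of SBP over sham was 0.08, and ratios below should be read relative to these shifts.

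Il6 (ENSMUSG00000025746, chromosome 5, 30013114 to 30019981 in GRCm38) was highest in the I/R section. It gave 6 UMIs in the sham section, 60 in the I/R section and 10 in the SBP section, or 0.239 CPM (95% interval 0.0877 to 0.520), 1.98 CPM (1.51 to 2.55) and 0.462 CPM (0.222 to 0.850). The interval of I/R did not overlap those of the other sections, and the sham and SBP intervals overlapped. I/R exceeded sham by a log2 ratio of 3.05 (1.85 to 4.56), and SBP against I/R stood at -2.10 (-3.23 to -1.12). The 60 UMIs of I/R came from 47 spots, and the 21 spots with the most Il6 held 56.7% of them. Because the I/R section enters both ratios, the 2 values are not independent. In every section Il6 gave fewer UMIs than Alb, a hepatocyte gene that heart cells should lack. Alb gave 11, 446 and 89 UMIs in sham, I/R and SBP, with 317 of the 446 in 1 spot. The part of stray transcripts in the Il6 levels was not tested.

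The receptor chains differed less between sections. Il6st (ENSMUSG00000021756, chromosome 13, 112464070 to 112510086), the shared signal-transducing chain, stood at 72.8 CPM in the sham section (69.5 to 76.2), 80.0 CPM in the I/R section (76.8 to 83.2) and 88.7 CPM in the SBP section (84.8 to 92.8). None of these intervals overlapped, but the log2 ratio of I/R over sham, 0.14, was under the median of all genes and turned negative with TMM or median-of-ratios scaling. Osmr (ENSMUSG00000022146, chromosome 15, 6813577 to 6874969), the oncostatin M receptor chain, stood at 16.4 CPM in the sham section (14.9 to 18.1), 28.6 CPM in the I/R section (26.7 to 30.6) and 21.4 CPM in the SBP section (19.5 to 23.4). It was highest in I/R, with a log2 ratio of 0.80 over sham (0.63 to 0.98), and SBP lay between them at -0.42 against I/R (-0.58 to -0.25).

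Stat3 (ENSMUSG00000004040, chromosome 11, 100885098 to 100939540) stood at 38.9 CPM in the sham section (36.5 to 41.4), 58.7 CPM in the I/R section (56.0 to 61.5) and 53.0 CPM in the SBP section. Both injured sections lay above sham, by log2 ratios of 0.60 and 0.45. The difference of -0.15 between SBP and I/R was near the median of all genes and turned to 0.01 with TMM or median-of-ratios scaling. Stat3 overlaps Stat5a on the opposite strand. Socs3 (ENSMUSG00000053113, chromosome 11, 117966079 to 117970047), a STAT3 target whose product inhibits gp130 receptors, stood at 3.94 CPM in the sham section (3.20 to 4.798), 13.2 CPM in the I/R section (11.9 to 14.5) and 7.21 CPM in the SBP section (6.12 to 8.44). Its 3 intervals were separate, with I/R highest. I/R stood above sham by a log2 ratio of 1.74 (1.42 to 2.07), SBP below I/R at -0.87 (-1.14 to -0.60) and SBP above sham by 0.87 (0.50 to 1.25).

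The secreted proteins split into 2 patterns. Hp (ENSMUSG00000031722, chromosome 8, 109575128 to 109579172), the hemoglobin-binding haptoglobin, followed Il6 and Socs3. It stood at 2.59 CPM in the sham section (1.997 to 3.30), 15.6 CPM in the I/R section (14.2 to 17.1) and 8.78 CPM in the SBP section (7.58 to 10.1), with a log2 ratio of 2.59 against sham in I/R (2.22 to 2.99) and of -0.83 against I/R in SBP (-1.08 to -0.58). The other 4 were highest in SBP. Lcn2 (ENSMUSG00000026822, chromosome 2, 32384633 to 32388252), the iron-siderophore carrier lipocalin-2, stood at 73.9 CPM in the sham section (70.5 to 77.3), 84.4 CPM in the I/R section (81.2 to 87.8) and 123 CPM in the SBP section (118 to 127). Lrg1 (ENSMUSG00000037095, chromosome 17, 56119678 to 56122001), a leucine-rich glycoprotein known to act on TGF-beta signalling in vessels, stood at 131 CPM in the sham section (127 to 136), 140 CPM in the I/R section (135 to 144) and 176 CPM in the SBP section (171 to 182). Serpina3n (ENSMUSG00000021091, chromosome 12, 104406729 to 104414329), a serine protease inhibitor, stood at 38.9 CPM in the sham section (36.5 to 41.5), 41.2 CPM in the I/R section (39.0 to 43.6) and 56.1 CPM in the SBP section (53.0 to 59.4). For these 3 genes the SBP section stood apart from both others. Their log2 ratios for SBP over I/R were 0.54 (0.46 to 0.62), 0.33 (0.27 to 0.40) and 0.44 (0.33 to 0.56), against a median of -0.17 over all genes. For I/R over sham they were 0.19, 0.09 and 0.08, all under the median of 0.24 and all negative with TMM or median-of-ratios scaling. Saa3 (ENSMUSG00000040026, chromosome 7, 46711998 to 46715700), a serum amyloid A made outside the liver, was stepped. It stood at 3.62 CPM in the sham section (2.92 to 4.45), 7.90 CPM in the I/R section (6.93 to 8.97) and 11.7 CPM in the SBP section (10.3 to 13.3), with a log2 ratio of 1.13 against sham in I/R (0.77 to 1.49) and of 0.57 against I/R in SBP (0.31 to 0.83). After every spot was thinned to the same depth, which left out the shallowest spots, the Saa3 ratio of SBP over I/R was 0.11 with an interval that includes 0 (-0.29 to 0.51), while that of Lcn2 was 0.46 (0.33 to 0.58). At that depth Lcn2 was also higher in I/R than in sham, at 0.46 (0.32 to 0.60).

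**Figure D1:**
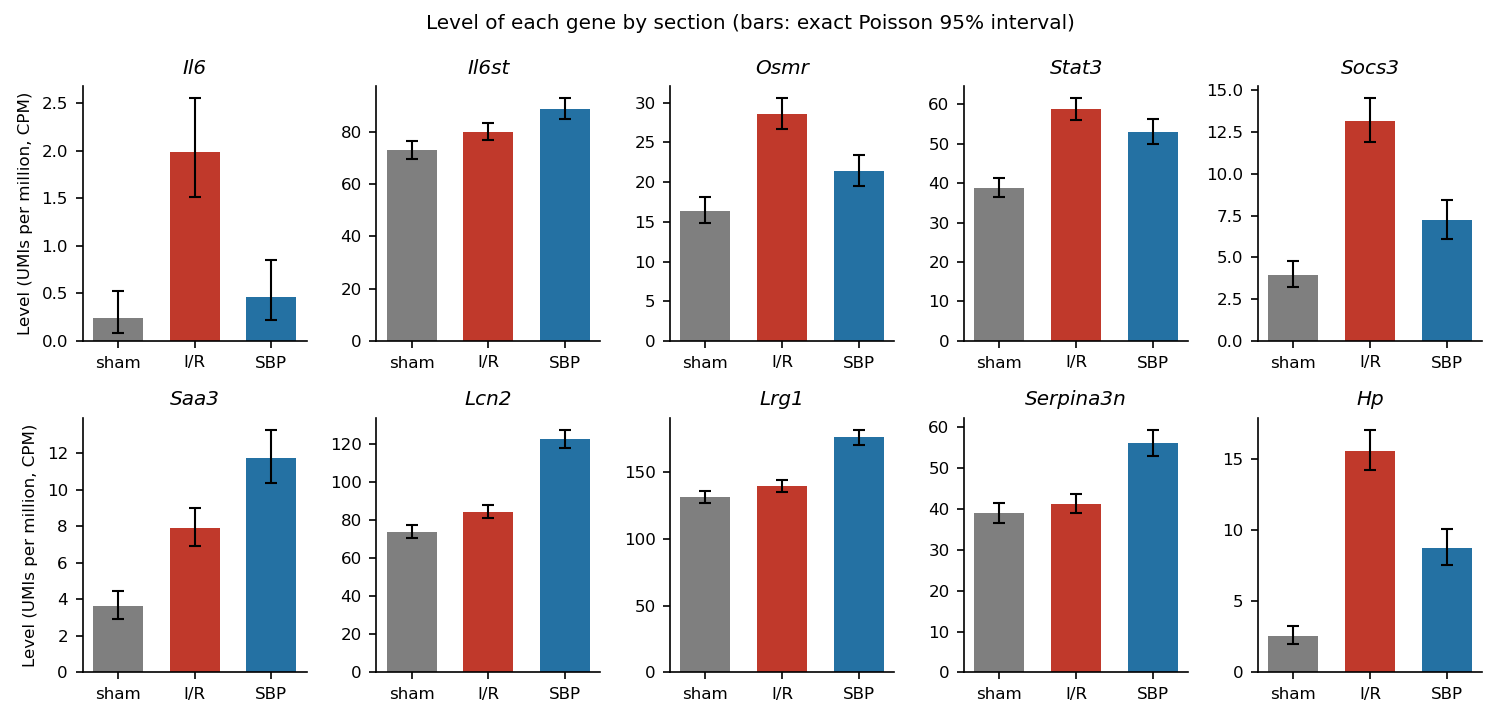
Level of each gene in CPM (y axis from 0, one scale a panel) in the sham, I/R and SBP sections, 1 section each, with exact Poisson 95% intervals. Il6, Socs3, Osmr and Hp stand highest in I/R, and Saa3, Lcn2, Lrg1, Serpina3n and Il6st stand highest in SBP.

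Reads that fit 2 genes can bear on some of these levels. Among stretches of 31 bases in the last 500 bases of its transcripts, Saa3 shared 126 of 1027, or 12.3%, with other genes. The genes that shared most were Malat1, Gm32624 and Ilf2. Only 39 stretches were shared with Saa1 or Saa2, which encode the liver forms. Serpina3n shared 1.70% with Serpina3g and Serpina3i. Osmr shared 0.213% and Stat3 0.0447% with other genes. The part of such reads in the Saa3 level was not tested. Saa1 and Saa2 themselves gave at most 5 UMIs in a section. No member overlaps another gene on its own strand.

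A gene was counted as higher or lower when it differed at least 2-fold with an interval that excludes no difference. For I/R over sham, 4 of the 10 genes were at least 2-fold higher (Il6, Hp, Socs3 and Saa3), against 8.38% of all 12231 genes with at least 50 UMIs, and 0 were at least 2-fold lower, against 0.523%. With TMM or median-of-ratios scaling Saa3 was under 2-fold and 3 genes were left. The median log2 ratio was 0.70 over the 10 genes and 0.24 over all. For SBP over I/R, Il6 alone of the 10 was at least 2-fold lower, against 4.53% of 12151 genes, and 0 were at least 2-fold higher, against 0.337%. Il6 passed the filter of 50 UMIs only through its 60 UMIs in I/R, so the filter favours its being counted in both comparisons. At equal depth Socs3 at -1.17 (-1.58 to -0.76) and Hp at -1.01 (-1.41 to -0.63) passed 2-fold too, and both did so with equal weight for each spot or without the 1% of spots richest in the gene. No share over all genes was computed with these scalings or settings. The median over the 10 genes was 0.00 and that over all genes -0.17. Of the 9 genes that could be compared between SBP and sham, Saa3 (log2 ratio 1.70) and Hp (1.76) were at least 2-fold higher, against 1.48% of all genes. The median of the 9 was 0.53.

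At equal depth the share of spots with a UMI followed the same 2 patterns for most members. Saa3 was an exception, and Lcn2 was also higher in I/R than in sham. Each spot was thinned to 6500 UMIs, which left 2102 sham, 1880 I/R and 1747 SBP spots. Lcn2 was found in 24.0% of sham spots (95% interval 22.2 to 25.9), 30.6% of I/R spots (28.5 to 32.7) and 36.9% of SBP spots (34.7 to 39.2). Serpina3n was found in 17.6%, 18.5% and 24.5%, and Lrg1 in 41.4%, 43.2% and 49.2%, so that for both genes only SBP stood apart. Without thinning, the I/R section had the highest share for Lrg1 at 62.4%, against 59.6% in SBP, and for Saa3 at 7.78%, against 6.68%. Socs3 was found in 2.14% of sham spots (1.57 to 2.85), 7.55% of I/R spots (6.40 to 8.84) and 3.78% of SBP spots (2.93 to 4.78). Hp followed at 1.71%, 7.02% and 3.55%. Osmr was found in 8.75%, 16.0% and 12.0%, and Stat3 in 21.9%, 30.3% and 26.6%, both highest in I/R. For Stat3 the intervals of I/R (28.2 to 32.4) and SBP (24.5 to 28.7) overlapped. Saa3 reached 4.04% in I/R and 4.18% in SBP, which did not differ beyond their intervals, and 1.76% in sham. Il6 was found in 1 sham spot, 23 I/R spots and 2 SBP spots at this depth. The share for Alb, a hepatocyte gene that heart cells should lack, was 0.333% of sham, 1.60% of I/R and 1.49% of SBP spots. The Il6 shares lay under these values in every section, and the sham shares of Saa3 and Hp were near the Alb share of the injured sections, so no difference is read from the Il6 shares.

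The other genes of the route were taken from lists of ligands, receptors, kinases, inhibitors and targets. Among 9 ligands, 6 had enough UMIs, and 4 of these were at least 2-fold higher in I/R than in sham, against 8.38% of all genes tested. They were Il6, Il11 with a log2 ratio of 4.00 (2.58 to 5.91), Osm with 2.34 (1.32 to 3.55) and Clcf1 with 1.51 (0.86 to 2.20). All 4 were at least 2-fold lower in SBP than in I/R, against 4.53% of all genes tested. The same shares apply to the counts of the other lists. Because the I/R section enters both ratios of a ligand, they are not independent. Il6, Il11 and Osm had enough UMIs only through the I/R section, so the filter favours ligands that are high there. Between SBP and sham, 3 of the 9 ligands could be compared. Il11, which acts on fibroblasts among other cells, gave 4 UMIs in the sham, 77 in the I/R and 2 in the SBP section. Osm, the leukocyte-made ligand of Osmr, gave 9, 55 and 7. Like those of Il6, these counts lay under the Alb counts in every section, and the part of stray transcripts was not tested. Ctf1, the cardiomyocyte cytokine cardiotrophin-1, did not differ beyond its intervals, at 3.07, 3.01 and 3.51 CPM.

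None of the 7 receptor genes differed 2-fold between I/R and sham. Il11ra1, the IL-11 receptor chain, and Lifr, the chain for leukemia inhibitory factor, were lower in I/R than in sham, with log2 ratios of -0.38 (-0.48 to -0.28) and -0.37 (-0.56 to -0.18). None of the 8 JAK-STAT genes differed 2-fold, and Jak2 came nearest at 0.89 (0.65 to 1.13). Of 7 inhibitors, Socs3, Socs1 at 1.04 (0.28 to 1.85) and Usp18 at 1.01 (0.50 to 1.54) were at least 2-fold higher in I/R. With TMM scaling Socs1 was at 0.82 and Usp18 at 0.79, which with median-of-ratios scaling also left Socs3 alone. Cish, a SOCS family gene tied to STAT5, was lower at -0.25 (-0.36 to -0.14).

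Of 10 transcription factor and kinase genes that STAT3 can induce, 4 were at least 2-fold higher in I/R than in sham. They were Myc at 2.14 (1.74 to 2.56), Batf at 1.72 (1.03 to 2.46), Bcl3 at 1.29 (0.94 to 1.66) and Junb at 1.23 (1.08 to 1.37). The median of the 10 was 0.86, and Myc and Junb were at least 2-fold lower in SBP than in I/R. With TMM and median-of-ratios scaling neither was 2-fold lower, with Myc at -0.96 and -0.95 and Junb at -0.88 and -0.87, and with the latter scaling Junb in I/R was under 2-fold at 0.99. Of 10 upstream inducers of the acute phase response, 8 could be compared, and 5 were at least 2-fold higher in I/R, with Il1rn at 2.76 (2.32 to 3.22) and Il1b at 2.50 (2.10 to 2.91). Only Il1b of this list was at least 2-fold lower in SBP than in I/R, at -1.12 (-1.42 to -0.84). With TMM or median-of-ratios scaling 3 inducers were left as higher in I/R (Il1b, Il1rn and Nfkbiz), and Il1b in SBP was under 2-fold, at -0.97 and -0.96.

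The wider acute phase list of 25 genes, which holds 5 of the members, was sparsely measured, and 8 of its 20 other genes gave no UMI in sham. Only 10 of the 25 had enough UMIs for I/R over sham, and 3 were at least 2-fold higher, namely Hp, Saa3 and Alb. C3, the central complement component, went the other way at 133 CPM in the sham section, 73.8 CPM in the I/R section and 90.3 CPM in the SBP section, which for I/R against sham is -0.85 on the log2 scale (-0.92 to -0.77). Alb, a defining hepatocyte gene, gave 11 sham, 446 I/R and 89 SBP UMIs. One I/R spot held 317 of the 446, and with it 15 of the 472 Hp UMIs of that section. Without that spot the Hp ratio of I/R over sham was 2.55 in place of 2.59. At equal depth the ratio was 2.35 (1.84 to 2.89) over all spots. It was 2.24 (1.73 to 2.78) in the spots without a UMI of the hepatocyte list. The part of liver transcripts in the other Hp UMIs was not tested.

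A spot was called Ankrd1-high when its Ankrd1 UMIs per 10000 UMIs passed the 95th percentile of the sham spots, 27.0. The sham spots just inside and just outside this threshold held 27.1 and 26.9. It took 112 sham spots (5.01%), 479 I/R spots (23.0%) and 326 SBP spots (16.6%). In sham, most members stood higher in these spots. Lcn2 reached 314 CPM there (289 to 340) against 54.8 CPM elsewhere (51.9 to 57.9), a log2 ratio of 2.52 that ranked 15 among 10642 genes. Lrg1 stood at 443 CPM (413 to 475) and 106 CPM (102 to 111), a log2 ratio of 2.06 and rank 48. Of the 9 genes with enough UMIs, 8 were at least 2-fold higher in the Ankrd1-high spots of sham, all except Il6st, against 8.33% of all genes. The median of the 9 was 1.58, against 0.31. Markers of other cells stood higher in the same spots, with 3 of 4 neutrophil genes tested at least 2-fold higher (median log2 ratio 1.60), 8 of 10 injury genes (1.70) and 7 of 10 macrophage and monocyte genes (1.05), and their part in the result was not tested.

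The concentration was weaker in the injured sections. In I/R, 1 of 10 genes was at least 2-fold higher in Ankrd1-high spots, against 2.13% of all genes. This was Osmr at 45.9 CPM (41.4 to 50.8) and 22.2 CPM (20.3 to 24.3), a log2 ratio of 1.05, and Lcn2 came next at 0.99 with 132 CPM (125 to 141) and 66.7 CPM (63.3 to 70.2). Both sit on the threshold. The count was 0 with the UMIs of mitochondrial genes left out of the totals, 2 with the sham 90th percentile and 0 with the 99th. In SBP, 1 of 9 genes was at least 2-fold higher, against 2.94%. This was Socs3 at 14.5 CPM (11.02 to 18.8) and 5.59 CPM (4.54 to 6.80), a log2 ratio of 1.38, with 5 genes at the sham 90th percentile. No share over all genes was computed at the other percentiles or without mitochondrial genes, so those counts are not read as particular to the members. Lcn2 was at 0.95 in SBP, with 203 CPM (189 to 217) and 105 CPM (100 to 110). Saa3, in contrast, did not differ beyond its intervals between Ankrd1-high and other spots of SBP. It stood at 10.97 CPM inside the Ankrd1-high area (7.94 to 14.8) and 11.9 CPM outside it (10.4 to 13.6), a log2 ratio of -0.12 that turned to 0.57 at the sham 90th percentile and to 1.36 in the region set by injury genes. Over quintiles of Ankrd1, given below, Saa3 in SBP rose up to the fourth and was lower in the highest. Il6 in I/R gave 13 UMIs in Ankrd1-high spots and 47 in the others, or -0.42 as a log2 ratio (-1.43 to 0.49), which turned to 3.42 (2.39 to 4.63) in the region set by injury genes.

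**Figure D2:**
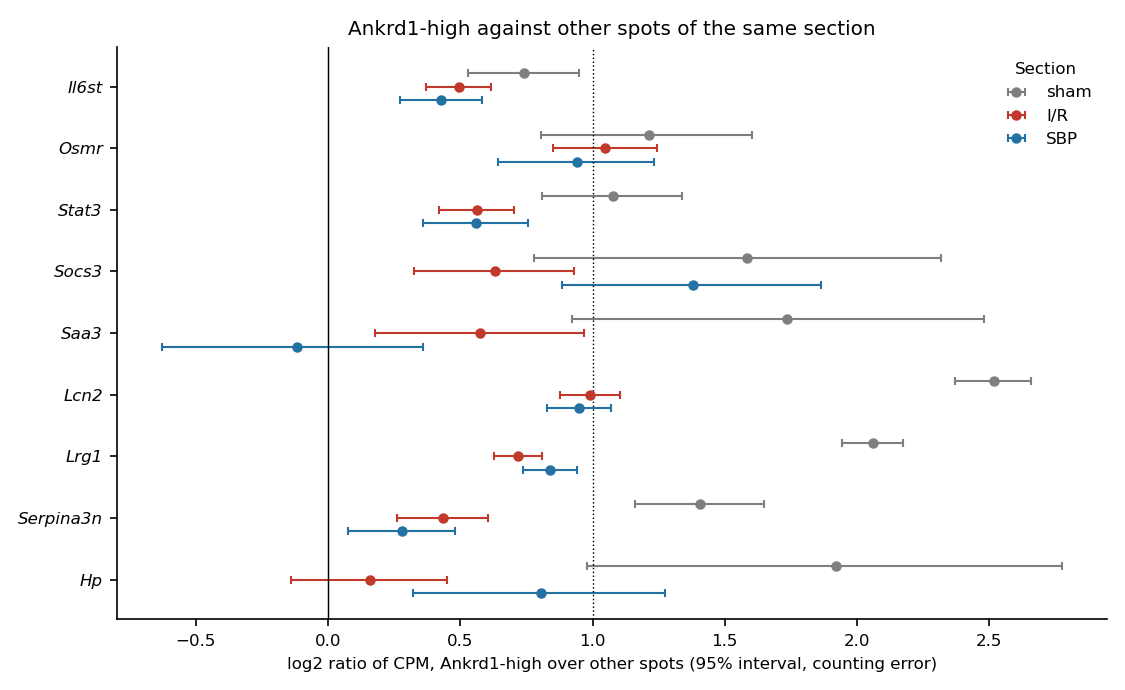
Log2 ratio of CPM in Ankrd1-high over other spots of the same section (x axis, bars 95% intervals for counting error) for 9 genes in sham, I/R and SBP, with the 2-fold line dotted. Il6 is left out for its few UMIs, and Lcn2 and Lrg1 in sham, at 2.52 and 2.06, lie above every value of the injured sections.

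Compared within Ankrd1-high spots alone, Lcn2, Lrg1 and Serpina3n were higher in sham than in I/R. The log2 ratio of I/R over sham in these spots was -1.24 for Lcn2 (-1.39 to -1.10), -1.18 for Lrg1 (-1.30 to -1.06) and -0.86 for Serpina3n (-1.12 to -0.59), while the median of all genes there was 0.13. The other secreted proteins went differently, with Hp higher in I/R at 1.05 (0.28 to 1.93) and Saa3 at 0.01 with an interval that includes 0 (-0.72 to 0.82). In the other spots the ratios were 0.28, 0.16 and 0.12, around the median of 0.19 over all genes there. From I/R to SBP, Lcn2 was higher by a log2 ratio of 0.62 in Ankrd1-high spots (0.48 to 0.75) and 0.65 in the others (0.56 to 0.75). Socs3 and Hp were lower in the other spots of SBP than of I/R, at -1.04 (-1.39 to -0.70) and -0.97 (-1.27 to -0.68). In Ankrd1-high spots their ratios of -0.29 and -0.32 had intervals that include 0. The 112 Ankrd1-high spots of sham were by construction the top of a section without ligation, and the 479 of I/R were not, so the same threshold takes different shares of each section.

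When the spots of each section were split into 5 quintiles by Ankrd1, the acute phase genes did not simply climb in the injured sections. Each of them was highest in the top quintile of sham. In sham, Lcn2 stood at 25.0, 23.9, 29.0, 53.2 and 203 CPM from the lowest to the highest quintile. In SBP it reached 216 CPM in the fourth quintile (203 to 230) and 195 CPM in the highest (183 to 208), which overlapped. Lrg1 in SBP stood at 322 CPM in the fourth quintile (305 to 339) and 265 CPM in the highest (250 to 280). These intervals did not overlap for Lrg1, so its peak lay below the spots richest in Ankrd1. Saa3 in SBP was sharper, at 1.18, 3.00 and 11.7 CPM from the lowest to the third quintile. It reached 30.2 CPM in the fourth (25.2 to 35.8) and 12.2 CPM in the highest (9.23 to 15.8). The fourth quintile held 132 of the 254 Saa3 UMIs. Because 20 spots of SBP held 41.7% of the 254, this peak may rest on few spots, which the intervals do not cover. In I/R the Saa3 level was flat over the upper 3 quintiles, at 10.9, 9.99 and 10.8 CPM. Hp in I/R was highest in the third quintile, at 28.3 CPM (23.9 to 33.3), and stood at 16.9 CPM in the highest (14.0 to 20.2). In SBP, Hp stood at 16.2 CPM in the fourth quintile and 14.1 CPM in the highest. Osmr and Il6st in I/R climbed from quintile to quintile, from 10.7 to 44.6 CPM and from 49.9 to 102 CPM, though the intervals of the upper 2 quintiles overlapped.

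**Figure D3:**
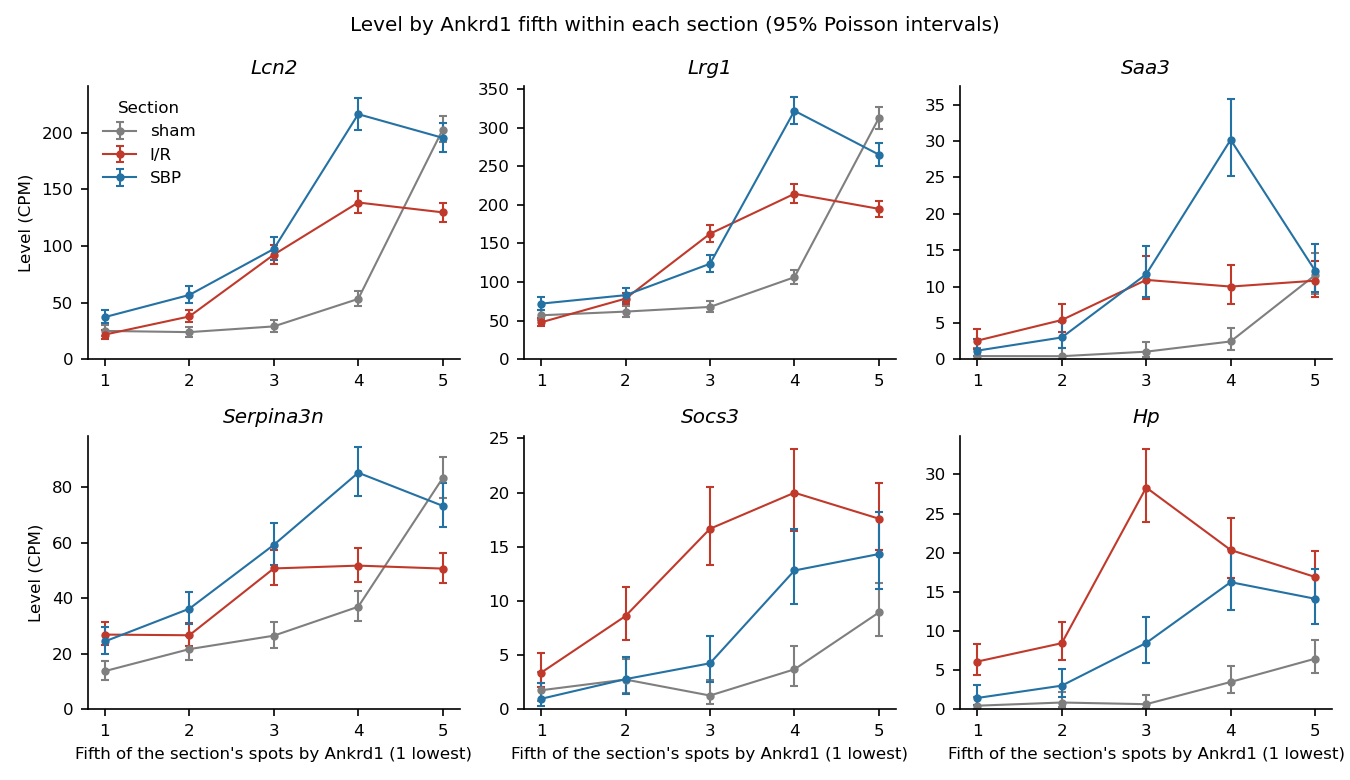
Level in CPM (y axis from 0) in each quintile of a section's spots ordered by Ankrd1 per 10000 UMIs (x axis, 1 lowest), with Poisson 95% intervals, for sham, I/R and SBP. In SBP, Lcn2, Lrg1, Saa3 and Serpina3n have their highest point in the fourth quintile, where the Lcn2 and Serpina3n intervals overlap those of the highest, while in sham all 6 genes are highest in the top quintile.

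The genes were then set against cell type marker lists, which cut across the 2 patterns. For each list, the 10% of spots in which its genes took the largest share of UMIs were set against the rest of the section. These were 208 spots in I/R and 196 in SBP. No share or median over all genes was computed for these spots, so their ratios are not read as particular to the members. In the neutrophil-rich spots of I/R, Hp stood at 106 CPM against 9.98 CPM elsewhere, a log2 ratio of 3.41 (3.14 to 3.68). Il6 was higher there by 4.01 (3.23 to 4.79), Socs3 by 2.31 (1.96 to 2.65) and Saa3 by 1.46 (0.90 to 1.99). Lcn2, in contrast, stood at 42.9 CPM there and 87.0 CPM elsewhere, a log2 ratio of -1.02 (-1.37 to -0.69), and Serpina3n at -1.06 (-1.59 to -0.59). The granule genes Ltf, Camp and Ngp, which neutrophil precursors express with Lcn2, gave at most 7 UMIs in any section. S100a8, a cytosolic protein gene of mature neutrophils, gave 256 sham, 3262 I/R and 1120 SBP UMIs. Whether these counts bear on the Lcn2 levels was not tested.

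In the neutrophil-rich spots of SBP, Lcn2 was on the other side, at 209 CPM against 115 CPM elsewhere, a log2 ratio of 0.86 (0.69 to 1.02). Lrg1 also turned, from -0.35 in I/R (-0.57 to -0.15) to 0.88 in SBP (0.75 to 1.02). Hp and Socs3 kept their direction in SBP, at 3.77 (3.34 to 4.20) and 2.51 (2.003 to 3.01). Of these neutrophil-rich spots, 15.4% were Ankrd1-high in the I/R section and 35.7% were in the SBP section. The part of this overlap in the difference was not tested. In sham, where neutrophil genes were few, Lcn2 was higher in these spots by 0.66.

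Spots rich in injury genes, a list of matrix and wound genes such as Spp1, Tnc and Timp1, were compared in the same way. In I/R, Il6 was higher there by 4.05 (3.27 to 4.83), Hp by 3.35, Saa3 by 2.64 (2.22 to 3.05) and Osmr by 1.03 (0.72 to 1.32). Lcn2 was lower, at -1.19 (-1.54 to -0.86), as was Lrg1, at -0.55 (-0.76 to -0.34). Serpina3n was lower as well, at -0.76. In SBP the ratios of Lcn2 and Lrg1 were both 0.12, with intervals that include 0, and Serpina3n was higher at 0.43 (0.14 to 0.71). When the region itself was set by the injury list in place of Ankrd1, 6 of 10 genes in I/R and 4 of 9 in SBP were at least 2-fold higher in it, against 41.2% of all genes in I/R and 20.7% in SBP. In I/R, Lcn2 turned to -0.52 (-0.64 to -0.39), Lrg1 to -0.35 (-0.45 to -0.26) and Serpina3n to -0.30 (-0.47 to -0.12). Macrophage-rich spots of I/R resembled them, with Saa3 at 2.58 (2.16 to 2.99), Socs3 at 2.51 and Lcn2 at -0.86 (-1.17 to -0.56).

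Serpina3n was higher in fibroblast-rich spots, though not only there and not alone among the members. It was at 73.1 CPM in fibroblast-rich spots of I/R and 37.4 CPM elsewhere, a log2 ratio of 0.97 (0.76 to 1.17), and at 121 CPM and 47.7 CPM in the SBP section, a log2 ratio of 1.34 (1.15 to 1.53). In spots rich in smooth muscle and pericyte markers Serpina3n was higher too, at 0.67 (0.42 to 0.91) in I/R and 0.74 (0.49 to 0.97) in SBP. Il6st, Osmr and Stat3 were also higher in the fibroblast-rich spots of both sections, with Il6st at 0.65 in I/R and 0.76 in SBP. In the fibroblast-rich spots Lcn2 was lower, at -0.58 (-0.80 to -0.36) in I/R and -0.48 (-0.69 to -0.28) in SBP. Lrg1 was lower there as well, at -0.66 and -0.54. In the spots richest in cardiomyocyte markers, none of which was Ankrd1-high in either injured section, Lcn2 was lower, at -1.89 (-2.27 to -1.53) in I/R and -1.52 (-1.85 to -1.21) in SBP. This was not particular to Lcn2, since every member had a negative ratio there in I/R, from -0.74 for Il6st to -5.49 for Hp. The interval of Il6 in I/R included 0, as did those of Il6, Osmr and Il6st in SBP.

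**Figure D4:**
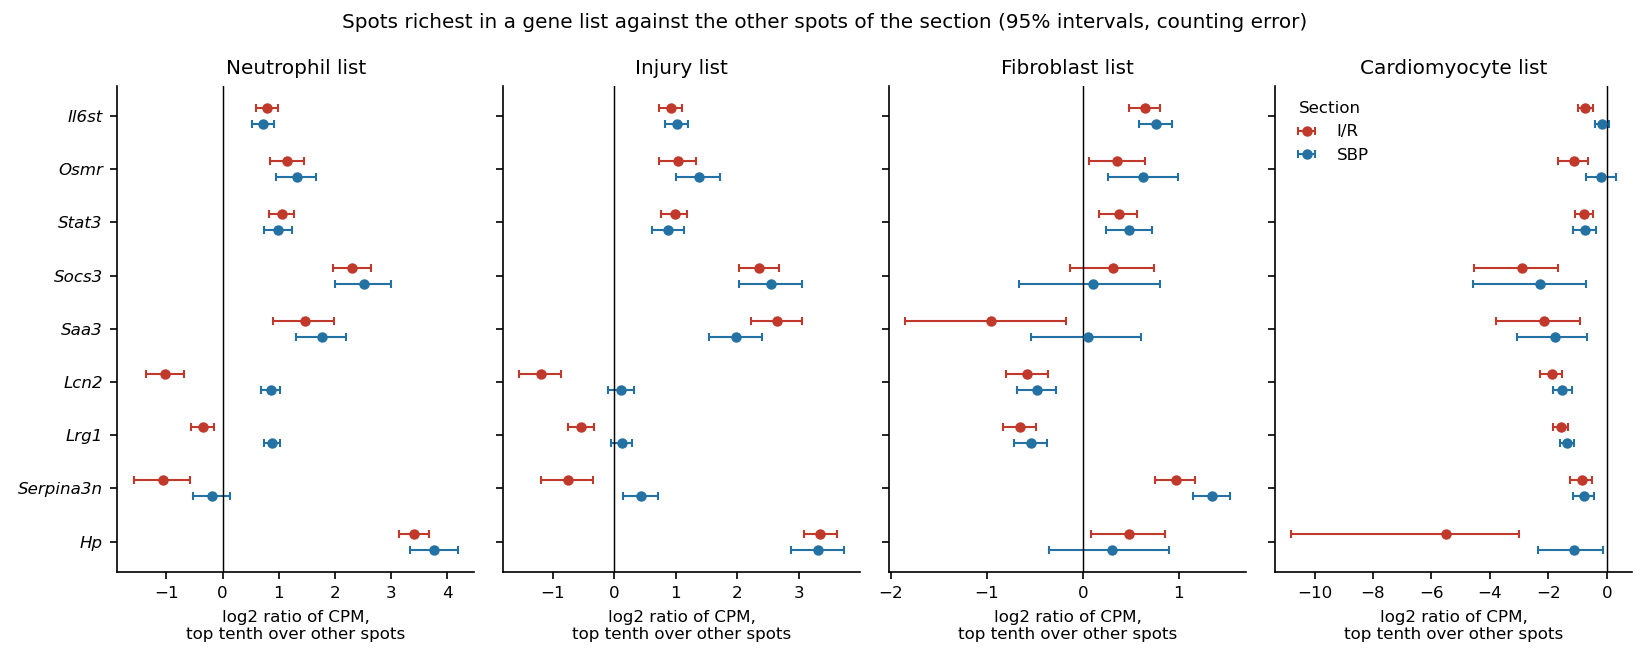
Log2 ratio of CPM in the 10% of spots richest in a gene list over the other spots of the section (x axis, bars 95% intervals for counting error, one scale a panel), for the neutrophil, injury, fibroblast and cardiomyocyte lists in I/R and SBP. Lcn2 and Lrg1 lie below 0 in the neutrophil-rich spots of I/R and above 0 in those of SBP, and Hp and Socs3 lie above 0 in both.

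Spots were also split at equal depth by whether they held any UMI of the neutrophil list, which 681 of 1880 spots did in I/R (36.2%), 344 of 1747 in SBP (19.7%) and 206 of 2102 in sham (9.80%). No share or median over all genes was computed for either set of spots, so their ratios are not read as particular to the members. In the spots without one, Socs3 still stood above sham in I/R, with a log2 ratio of 1.49 (0.84 to 2.17), and SBP below I/R at -1.02 (-1.68 to -0.37). Hp in these spots was at 0.90 for I/R over sham, with an interval that includes 0 (-0.11 to 1.92), and at 0.54 for SBP over I/R (-0.30 to 1.41), where the direction of the whole section did not hold. Saa3 was at 0.45 for I/R over sham (-0.28 to 1.17). Of the 4 genes at least 2-fold higher in I/R than in sham, Socs3 was left as such in the spots without a neutrophil UMI and Saa3 was not, while Hp and Il6 were too sparse there to be counted. Hp had 20 UMIs there in I/R against 17 in sham, and Il6 had 3 against 1.

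For Lcn2, Lrg1 and Serpina3n the ratios of SBP over I/R were larger in the spots with neutrophil UMIs, although most UMIs of Lcn2 lay outside them, at 588 of I/R and 807 of SBP without a neutrophil UMI against 357 and 398 with one. With such a UMI the log2 ratios were 1.14 (0.93 to 1.35), 0.92 (0.75 to 1.09) and 1.12 (0.79 to 1.46). Without one they were 0.23 (0.07 to 0.39), 0.11 (-0.01 to 0.24) and 0.22 (an interval that just includes 0, up to 0.43), and for each gene the 2 intervals did not overlap. For Il6st it was the reverse, at 0.01 with a neutrophil UMI (-0.22 to 0.24) and 0.41 without (0.24 to 0.59). In the spots with a neutrophil UMI, the ratios of I/R over sham were negative for Lcn2 at -0.22 (-0.52 to 0.08), Lrg1 at -0.41 and Serpina3n at -0.52. Those of SBP over sham were 0.92, 0.51 and 0.61. The split also takes a different share of each section. The part of the low I/R levels and of the unequal shares in the ratios of SBP over I/R was not tested.

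**Figure D5:**
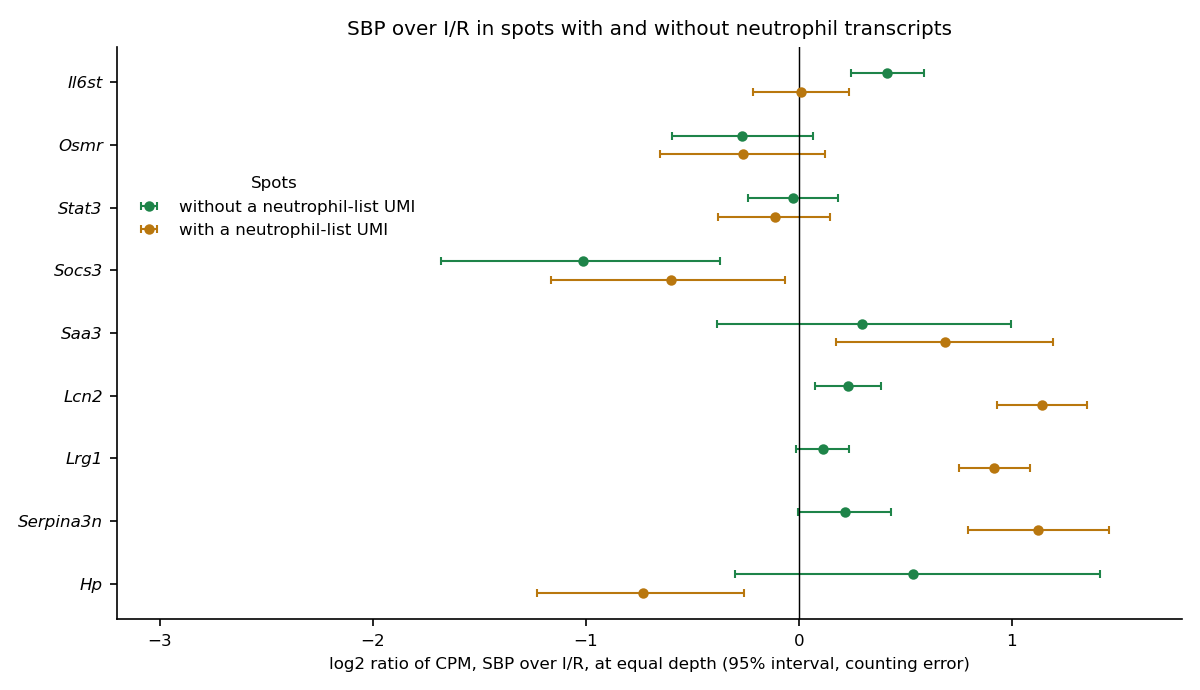
Log2 ratio of CPM of SBP over I/R (x axis, bars 95% intervals for counting error) in spots with and without a UMI of the neutrophil list, after thinning to 6500 UMIs, for 9 genes. Lcn2, Lrg1 and Serpina3n lie near 1 in spots with such a UMI and near 0.2 or lower in spots without one.

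Spot by spot, Lcn2 and Lrg1 went together. Over the 1880 thinned spots of I/R, Pearson's r of log2 of UMIs + 1 was 0.37, the highest for Lcn2 among 4616 genes, followed by Mt1, a metallothionein, at 0.28 and Clu, the chaperone clusterin, at 0.27. The same pair gave 0.43 over 2102 spots of sham and 0.44 over 1747 spots of SBP. Serpina3n was nearest to Lcn2 at 0.24, Lrg1 at 0.18 and Mgp at 0.18. The genes nearest to Osmr, Il6st and Stat3 were abundant cytoskeletal and translation genes, led by Eef1a1 at 0.26 for Osmr and by Actb at 0.28 for Il6st and 0.25 for Stat3. Socs3 and Hp gave 0.20 in I/R and 0.09 in SBP. Saa3 and Lcn2 gave 0.09 in I/R and 0.23 in SBP. These values describe spots of 1 section, which share a library and hold the same number of UMIs, and all pairs named rest on sparse counts.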

How the data were processed

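The data are Visium libraries, 1 heart section for each of sham, I/R and SBP. As deposited by the authors, the values are raw UMI counts for genes by tissue spots. Space Ranger 1.3.0 and build mm10 are given per the labels, whereas the study's methods state a different version with a human reference. The members and gene lists were chosen with earlier results of these data known, and give no independent support. A minimum of 200 detected genes removed 3, 1 and 2 spots of the sham, I/R and SBP sections. UMIs were summed over spots and divided by all UMIs (CPM), with exact Poisson, Clopper-Pearson and conditional binomial 95% intervals. A gene at 0 UMIs in a section may reach 0.0992 to 0.139 CPM (3 UMIs). Ratios were compared for genes with at least 50 UMIs in the 2 groups. Spots were thinned without replacement to 6500 UMIs, the 10th percentile rounded down. Genes named are the 10 members, Ankrd1, up to 6 genes of each list by the size of the log2 ratio of I/R over sham, defining markers, and the 3 genes nearest to each member with at least 500 UMIs. Ltf, Camp, Ngp, Saa1, Saa2, Serpina3g and Serpina3i were named after their values were seen. Malat1, Gm32624 and Ilf2 were named for the stretches they share with Saa3. GENCODE M21 held 32158 of the gene identifiers and lacked 127. The count ratios and thinning were tested on simulated data. The alternatives were other scalings, spot filters, Ankrd1 thresholds and depths, and 4 sets of spots were chosen after seeing the data. Calculations ran in Python 3.11.15 with pandas 2.3.3, scipy 1.17.1 and numpy 2.4.6, plots in matplotlib 3.10.9, and TMM factors were computed from the formula.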

Additional observations from a re-analysis of the deposited data

How the results depend on the processing

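No paired analysis was possible because a condition is a lone section, which also leaves no replicate to omit. The median log2 ratio of the 10 genes for I/R over sham was 0.48 with TMM factors, 0.46 with median-of-ratios factors and 0.90 with equal weight for each spot, and for SBP over I/R it was 0.16, 0.16 and -0.15. These 2 scalings move every gene of a comparison alike, by -0.22 and -0.24 for I/R over sham and by 0.16 for SBP over I/R. The number of genes at least 2-fold lower in SBP than in I/R was 3 (Il6, Socs3 and Hp) with equal weight for each spot, and 3 without the 1% of spots richest in each gene. The number at least 2-fold higher in I/R than in sham was 1 in spots without a neutrophil UMI, a split chosen after seeing the data, where Hp and Il6 had under 50 UMIs. In Ankrd1-high spots of I/R the number was 2 at the sham 90th percentile, 0 at the 99th, 0 at the 95th percentile of the section itself, 0 after thinning, 0 without mitochondrial genes and 6 in the region set by injury genes. In SBP it was 5 at the sham 90th percentile, 2 after thinning and 4 in the region set by injury genes. Among these settings, a share over all genes was computed only for the region set by injury genes. The other counts are not read as particular to the members. The cause of these changes was not tested. Apart from the sets of spots chosen after seeing the data, 126 of 138 values for single genes between sections kept their direction, and 108 of 119 between regions did. The region values cover I/R and SBP only, and the Ankrd1-high spots of sham were not examined under other settings. No gene counted as at least 2-fold higher or lower changed direction, while Il6 in Ankrd1-high spots of SBP, not counted for its 10 UMIs, went from 1.59 to -0.25 after thinning. Depth limits Il6, with 6 to 60 UMIs a section, and the single section of each condition limits every comparison.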
